A study of Mus musculus with 30 samples.

Results

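The 10 genes described here are Lepr, Galnt15, Inmt, Abca6, Abca8a, Apod, Pamr1, Abi3bp, Neto2 and Cdr1, out of 30142 genes measured in mouse uterus. They were chosen from these data because their RNA was lower at 24 h of estradiol or of insulin-like growth factor 1, and each was read from the 1 probe set that names it alone. They code for a hormone receptor, 2 enzymes, 2 membrane transporters, 3 secreted proteins, a receptor partner and a protein first known as a brain autoantigen. The working label calls them stromal and late, and both words are set against the data further on.

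Uterine RNA came from female mice 21 days old on 30 whole-transcript arrays, 3 for each of 10 groups, and the array number limits the precision. Wild-type mice (WT) were set beside mice with a deletion of exon 3 in the gene of estrogen receptor alpha, a line labelled Ex3aERKO (KO). All agents were injected into the abdominal cavity. Vehicle was 100 ul of saline with uteri taken at 24 h, 17β-estradiol (E2) was 250 ng in 100 ul of saline with uteri taken at 2 h or 24 h after 1 injection, and IGF1 was 50 ug in phosphate-buffered saline. For IGF1 the uteri were taken 2 h after 1 injection, or at 24 h after 3 injections given at 0, 8 and 16 h. Each of these 5 treatments was given to both genotypes. The labels do not say whether replicates were separate animals, so the spread among the arrays of a group may be technical. A p-value or standard error speaks only of that spread, taken for each gene over all 10 groups together and not from the compared groups alone. Spread differed between groups: for Inmt the standard deviation was 0.02 at 24 h of E2 in WT and 2.46 at 2 h of IGF1 in KO. Effects of time after vehicle at 2 h, of buffer, and of the number of IGF1 injections cannot be told apart from the treatments. Values are log2 levels as deposited, a difference of 1 is a 2-fold change, and differences are given ± standard error (SE) with n = 3 in each group.

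The uterus of an immature mouse grows in response to estrogen, with secretion of fluid and division of epithelial cells. Estrogen receptor alpha mediates this response, and IGF1 made by the stroma is one of its known local messengers. Connective tissue cells make matrix proteins, lipid carriers and receptors for circulating hormones.

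RefSeq promoters of build GRCm38.p6 were at hand for 7 of the 10 genes, 9 promoters in all, while Pamr1, Abca6 and Abi3bp had none. The 250 bases before each start were searched on both strands for 4 motifs by exact letters. The palindromic estrogen response element was in 0 of the 9 promoters and in 0.0639% of all 32851 promoters. The FOXO site GTAAACA was in 0 of 9 against 3.17% of all, and the palindromic glucocorticoid response element in 0 of 9 against 0.387%. The AP-1 site TGACTCA was in 1 of 9 against 4.46% of all, and none of these motifs overlapped another in a member's promoter. That match was in Galnt15, 58 bases before the start used for that promoter, and is shown in capitals. The other sequences, from the hormone receptor and from the enzyme with the widest range of levels, hold none of the 4 motifs. Galnt15 is at chr14:32028853-32029102 on the plus strand, Lepr (the first of its 2 promoters) at chr4:101717157-101717406 on the plus strand, and Inmt at chr6:55174991-55175240 on the minus strand, each written 5′ to 3′ along the gene.
Galnt15: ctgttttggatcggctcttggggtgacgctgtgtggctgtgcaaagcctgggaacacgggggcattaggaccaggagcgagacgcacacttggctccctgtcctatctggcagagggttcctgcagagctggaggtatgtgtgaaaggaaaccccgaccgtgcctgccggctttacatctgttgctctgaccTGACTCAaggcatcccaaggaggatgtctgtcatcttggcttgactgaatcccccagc
Lepr: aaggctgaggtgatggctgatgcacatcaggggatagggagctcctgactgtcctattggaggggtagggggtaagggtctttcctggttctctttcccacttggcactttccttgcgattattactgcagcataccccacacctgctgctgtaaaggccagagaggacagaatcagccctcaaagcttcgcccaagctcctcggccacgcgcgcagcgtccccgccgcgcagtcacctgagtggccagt
Inmt: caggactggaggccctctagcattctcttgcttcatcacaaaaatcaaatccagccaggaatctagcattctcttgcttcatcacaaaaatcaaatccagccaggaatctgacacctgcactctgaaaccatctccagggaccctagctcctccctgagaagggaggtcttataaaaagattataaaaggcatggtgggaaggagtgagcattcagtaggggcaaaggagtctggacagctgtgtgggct
In RefSeq the Galnt15 gene begins at 32028782 and the Lepr gene at 101717137, so these 2 windows lie inside the annotated genes. The letters are a description of a short window, and nothing about a factor's binding was measured.

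Array medians ran from 6.17 to 6.47, and the mean correlation of an array with those of its group from 0.975 to 0.994. Weights fitted to the arrays ran from 0.166 to 3.66 and were lowest for WT vehicle replicate 1. The next lowest weight, 0.259, was that of KO E2 24 h replicate 2, which also had the highest array median. WT vehicle replicate 1 also read 10.16 for Xist, an RNA of the inactive X chromosome, against 17.01 to 18.12 on the other 29 arrays, and none of 3 Y-linked genes was above background on it. The WT differences of the 10 genes from vehicle, and the total counts of list genes called against WT vehicle, are given with and without WT vehicle replicate 1. Counts of each list and values of single list genes against WT vehicle include it. Esr1, the gene of estrogen receptor alpha, read 11.44 to 12.73 on WT and 9.38 to 10.41 on KO arrays, although its probe set may lie outside the deleted exon. As background level of an array the 95th percentile of its 1084 olfactory receptor genes was taken, 5.65 to 6.55, and the 10 genes were above it on all but 4 readings. Those 4 were Cdr1 on KO vehicle replicate 2 and, under IGF1 at 24 h in KO, Cdr1 on replicate 3, Abca6 on replicate 2 and Pamr1 on replicate 1. Because these are whole uteri, fewer cells of a type and less RNA per cell cannot be told apart.

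In WT mice all 10 genes were lower at 24 h of E2 than with vehicle, with log2 differences from -2.47 (Abca6) to -3.88 (Pamr1) and no overlap of replicates. That is 5.53-fold to 14.7-fold, and the median difference was -3.15, beside -0.10 over all genes. This comparison chose the genes, so it is a description: 13.3% of all genes were called lower in it and 21.4% were lower without overlap. The 10 genes were among the 29 of lowest difference, and 816 genes were called and at least 2-fold lower. The rule states no threshold. Without WT vehicle replicate 1 the range was -4.40 (Inmt) to -1.95 (Cdr1), again without overlap, with a median of -3.34, and the 10 genes were among the 112 of lowest difference. At 24 h of IGF1 the WT means of all 10 were lower too, with a median of -1.94, and 6 of them did not overlap with vehicle, where 0.962% of all genes were called lower and 11.2% were lower without overlap. Set directly beside IGF1 at 24 h in WT, E2 at 24 h gave lower means of all 10, without overlap for 8 (16% of all genes), again as a description. Under IGF1 in WT, Lepr (-2.52) and Neto2 (-2.38) had the largest differences and Abi3bp (-0.78) the smallest. Without WT vehicle replicate 1 the largest were Lepr (-2.97), Galnt15 (-2.80), Pamr1 (-2.53) and Inmt (-2.45), before Neto2 (-2.38), and Abi3bp (-1.01) stayed the smallest. The median was then -2.07, and all 10 were without overlap, beside 16.9% of all genes.

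In KO mice 8 of the 10 genes were called lower than vehicle at 24 h of IGF1, beside 4.35% of all genes, and none of the 10 at 24 h of E2. The rule names no genotype and is read here as the WT fall, which is an assumption: 8 of the 10 were also among the 59 lowest differences at 24 h of IGF1 in KO. If KO arrays took part in the choice, the KO values at 24 h, with their p-values and counts, are descriptions too. That covers the p-values in the paragraphs on single genes and those of 24 h against 2 h in KO. They are then not independent support for a fall. Beside the 8 that fell under IGF1 (limma, adjusted p < 0.05) 0 rose. The median of the 10 was -2.88 beside -0.04 over all genes, and 9 of them did not overlap with vehicle, beside 14.5% of all genes. At 24 h of E2 in KO, limma called 0 of the 10 and 0% of all 30142 genes; 3735 genes, among them 1 of the 10, were under an unadjusted p of 0.05. Their median there was -0.21, with 7 means lower and 3 higher than vehicle. Set directly against E2 at 24 h, IGF1 at 24 h in KO gave lower levels of all 10 genes, each called and without overlap, with a median of -2.55; 10.2% of all genes were called lower and 23.7% were lower without overlap, and their median was -0.13. This comparison and the one with vehicle share the 3 IGF1 arrays. Leaving out an array kept 8 calls against vehicle in each of 6 fits, and left 8 to 10 against E2. The 8 counted without KO E2 24 h replicate 2 or without KO IGF1 24 h replicate 2 lacked Abi3bp together with Cdr1 or Inmt.

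**Figure D1:**
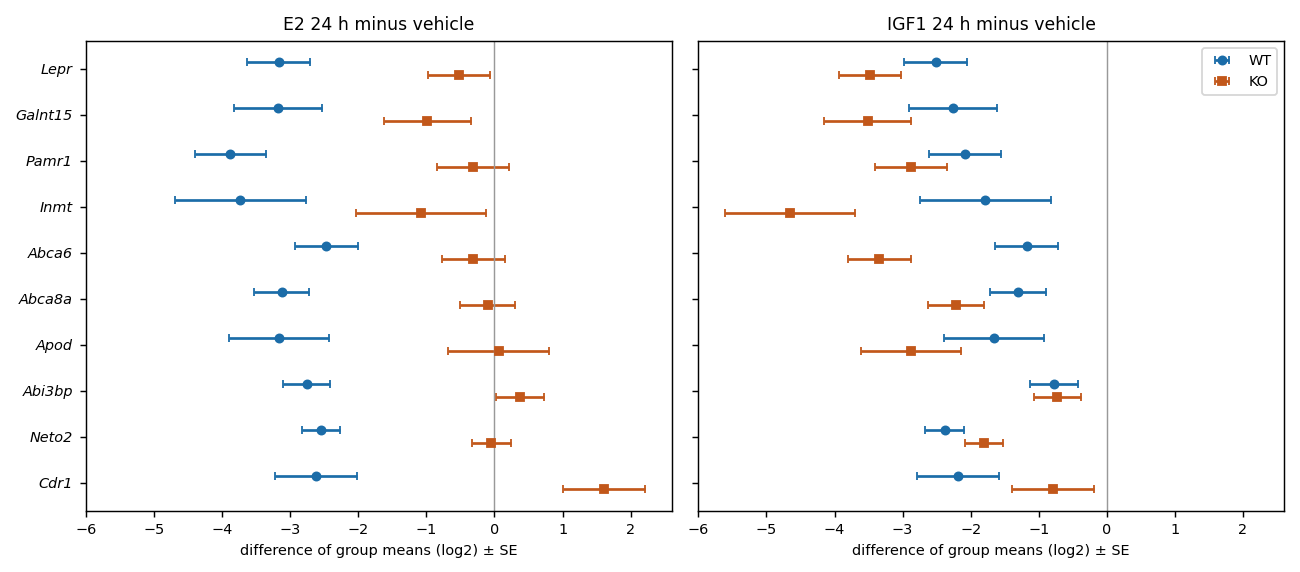
Differences of group means at 24 h from vehicle (log2, ± SE, 3 arrays per group) for E2 on the left and IGF1 on the right, with WT as circles and KO as squares. Under E2 the WT differences lie between -3.88 and -2.47 and the KO ones between -1.08 and 1.61, while under IGF1 the points of both genotypes all lie below 0.

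Lepr codes for the receptor of leptin, the hormone of fat stores, and had a large fall. On KO vehicle arrays its log2 level was 12.15, 13.05 and 13.26, and at 24 h of IGF1 it was 9.18, 9.58 and 9.26. E2 at 24 h in KO read 12.77, 11.71 and 12.42. The IGF1 arrays were thus all below both other groups, and the E2 arrays lay across the vehicle range. Under IGF1 it fell by 3.48 ± 0.46, or 11.2-fold (limma adjusted p = 7.27e-05), and the difference from E2 was -2.95 ± 0.46 (limma adjusted p = 0.000137). Under E2 itself the difference was -0.52 ± 0.46 (limma adjusted p = 0.67). In WT, vehicle read 11.12, 12.48 and 12.47, with E2 at 24 h at 9.01, 8.88 and 8.67 and IGF1 at 24 h at 9.45, 10.04 and 9.03. No array of either agent reached the lowest vehicle array, which was replicate 1, and without that array the WT differences grew from -3.17 to -3.62 and from -2.52 to -2.97. By order of group means KO vehicle was highest and WT at 24 h of E2 lowest, a span of 3.97. Of the 9 neighbours in that order 3 pairs did not overlap, those of WT E2 2 h with WT IGF1 2 h, WT IGF1 2 h with WT IGF1 24 h, and KO IGF1 24 h with WT E2 24 h.

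The other genes of leptin signalling went both ways. Beside the counts of this and the later lists, 13.3% of all genes were called lower at 24 h of E2 in WT. At 24 h of IGF1 in KO it was 4.35%. The share of all genes called higher is not given, so counts of rises stand without that measure. Of 15 measured, 1 fell and 2 rose at 24 h of IGF1 in KO, and 1 fell and 5 rose at 24 h of E2 in WT. Irs2, an adaptor of the insulin and leptin receptors, was the gene that fell, at -1.99 ± 0.51 (limma adjusted p = 0.01) and -2.10 ± 0.51 (adjusted p = 0.00299). The phosphatase gene Ptpn2 rose by 0.78 ± 0.19 under IGF1 in KO (limma adjusted p = 0.00788). Under E2 in WT the rise was 1.03 ± 0.20 for Jak2, the kinase bound to the leptin receptor, and 1.16 ± 0.25 for Leprot, a regulator of the receptor at the cell surface (limma adjusted p = 0.000378 and 0.000941). The median of the list was 0.01 in the former and 0.22 in the latter comparison.

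Galnt15, an enzyme gene of the family that starts O-linked sugar chains on proteins, read 9.27, 10.98 and 10.75 on KO vehicle arrays. IGF1 at 24 h in KO gave 6.56, 6.86 and 7.04, and E2 at 24 h gave 10.07, 8.52 and 9.46. IGF1 arrays were below all others here, while the E2 arrays overlapped with vehicle. The level fell by 3.52 ± 0.64, or 11.4-fold (limma adjusted p = 0.000718). In WT the levels were 8.99, 10.41 and 10.82 with vehicle, 6.90, 6.95 and 6.84 at 24 h of E2, and 7.60, 8.29 and 7.56 at 24 h of IGF1. WT and KO vehicle arrays overlapped for this gene, and the lowest mean of all groups was that of IGF1 at 24 h in KO. Of the 18 other genes of the family, 7 were at background on all WT vehicle arrays and 8 on all KO vehicle arrays. At 24 h of E2 in WT 0 of the 18 fell and 8 rose, led by Galnt3 (2.72 ± 0.25), Galnt12 (2.31 ± 0.18) and Galnt4 (1.62 ± 0.21). Under IGF1 in KO 2 fell and 1 rose, Galnt11 (-0.83 ± 0.21) and Galnt1 (0.46 ± 0.11) among them. The epithelial markers fixed for the uterus moved with those rises: 11 of 13 rose at 24 h of E2 in WT, with a median of 2.65, and their part in the rise of the Galnt genes was not tested.

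Inmt codes for an enzyme that adds methyl groups to small amines, and it had the widest range of the 10, 7.25 between the highest and lowest group means. KO vehicle arrays read 11.13, 13.06 and 13.44, against 8.34, 6.56 and 8.77 at 24 h of IGF1 and 12.25, 9.76 and 12.40 at 24 h of E2. All 3 IGF1 arrays were below the lowest of the others. Inmt fell by 4.66 ± 0.96, or 25.2-fold (limma adjusted p = 0.00187), the second lowest difference of all genes in that comparison. If KO arrays took part in the choice of the genes, that rank and p-value are descriptions. In WT, vehicle read 8.59, 10.53 and 10.66 and E2 at 24 h 6.17, 6.20 and 6.21, while IGF1 at 24 h read 7.73, 9.20 and 7.49. The E2 arrays were far below vehicle and nearly equal, and the IGF1 arrays overlapped with WT vehicle through its replicate 1. KO vehicle was above WT vehicle without overlap, by 2.62 on the means and by 1.95 without WT vehicle replicate 1. Among 7 other small-molecule methyltransferase genes, 3 were at background on all WT vehicle arrays and 3 on all KO vehicle arrays. Of the 7, 0 fell and 3 rose at 24 h of E2 in WT, and 0 fell and 2 rose at 24 h of IGF1 in KO. Tpmt, which methylates thiopurines, rose in both, by 1.02 ± 0.13 and by 0.91 ± 0.13, and so did Gamt of creatine synthesis, by 0.82 ± 0.16 and by 0.66 ± 0.16.

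**Figure D2:**
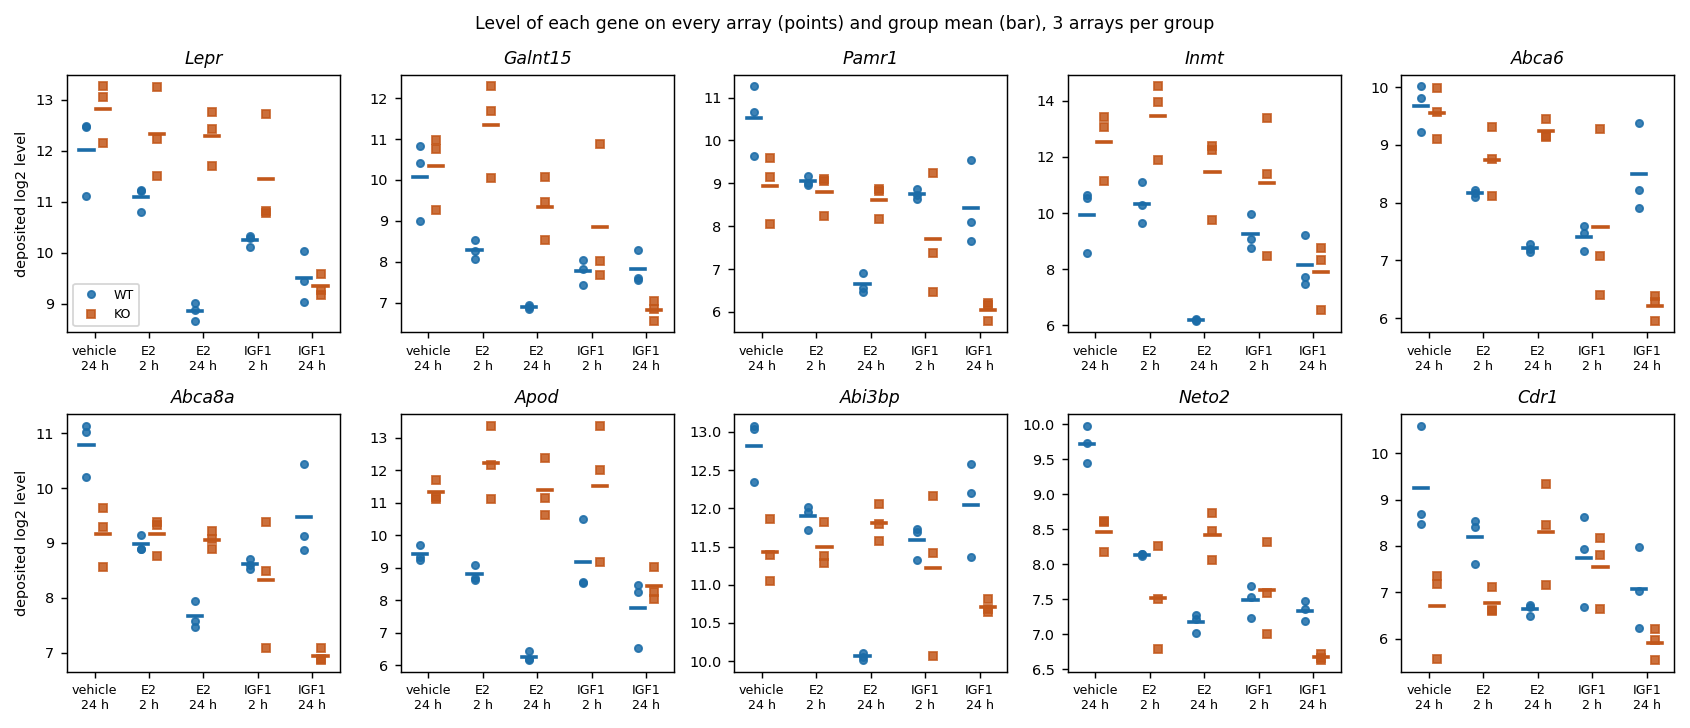
Deposited log2 level of each of the 10 genes on every array (points) with the group mean (bar), WT as circles and KO as squares, for vehicle, E2 at 2 h and 24 h and IGF1 at 2 h and 24 h, 3 arrays per group. The vertical scales differ between genes and do not start at 0; the KO arrays at 24 h of IGF1 have the lowest or second lowest group mean in 9 panels and the third lowest for Apod, and the WT arrays at 24 h of E2 are low while the KO arrays at 24 h of E2 are not.

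Abca6 and Abca8a code for lipid transporters of the ABCA family and, in RefSeq, lie in 1 row on chromosome 11 in the order Abca8b, Abca8a, Abca9, Abca6, Abca5. Their sequences are close, so probes may read more than 1 of them. For Abca6 the KO arrays read 9.11, 9.99 and 9.57 with vehicle, 6.39, 5.96 and 6.28 at 24 h of IGF1, and 9.45, 9.15 and 9.13 at 24 h of E2. Abca8a read 8.55, 9.29 and 9.64 with vehicle, 6.88, 6.87 and 7.08 at 24 h of IGF1, and 9.08, 9.22 and 8.89 at 24 h of E2. Both genes were thus low on every IGF1 array and within the vehicle range on every E2 array. Abca6 fell by 3.34 ± 0.46, or 10.2-fold (limma adjusted p = 9.13e-05), with 1 of the IGF1 arrays at background. Abca8a fell by 2.22 ± 0.41, or 4.66-fold (limma adjusted p = 0.000766). All 3 neighbours, which are not among the 10, fell as well: Abca5 at -1.12 ± 0.20, Abca9 at -0.91 ± 0.25 and Abca8b at -0.67 ± 0.17 (limma adjusted p = 0.000724, 0.0147 and 0.0096). At 24 h of E2 in WT, Abca5 (-1.01 ± 0.20) and Abca8b (-0.66 ± 0.17) fell, while Abca9 was at -0.59 ± 0.25 (limma adjusted p = 0.079). Abca8b was near background, above it on 27 of 30 arrays.

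**Figure D3:**
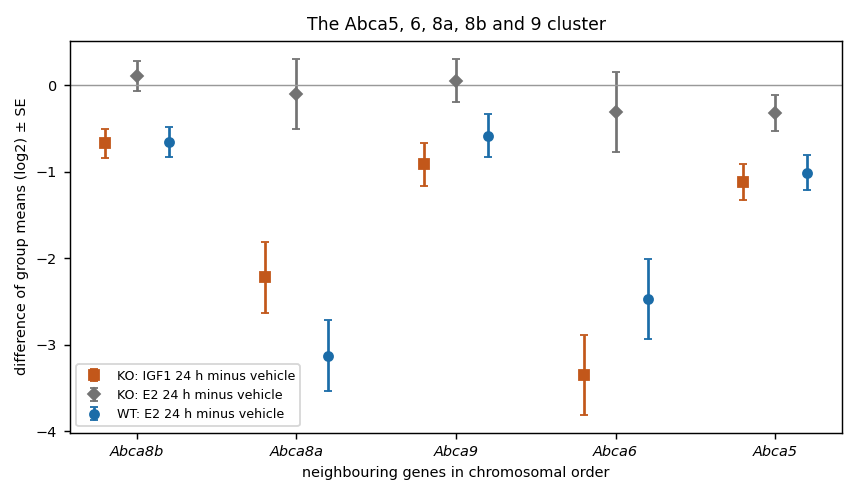
Differences from vehicle (log2, ± SE, 3 arrays per group) of the 5 neighbouring Abca genes in chromosomal order, for IGF1 at 24 h in KO (squares), E2 at 24 h in KO (diamonds) and E2 at 24 h in WT (circles). Abca8a and Abca6 have the largest falls, their 3 neighbours smaller ones, and the E2 points of KO lie near 0.

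Levels of these transporters in WT were high with vehicle and spread under IGF1. Abca6 read 9.22, 10.01 and 9.81 with vehicle, 7.29, 7.19 and 7.15 at 24 h of E2, and 8.22, 9.38 and 7.90 at 24 h of IGF1. Abca8a read 10.20, 11.14 and 11.03, then 7.95, 7.46 and 7.57, then 9.13, 10.44 and 8.87 in the same order. WT arrays at 24 h of E2 were all below vehicle, and replicate 2 of IGF1 at 24 h reached into the vehicle range for both. Of the 14 other ABCA genes measured, 6 were at background on all WT vehicle arrays and 6 on all KO vehicle arrays. Over the 14, 5 fell and 2 rose at 24 h of E2 in WT, and 4 fell and 1 rose at 24 h of IGF1 in KO. Abca1, which exports cholesterol from cells and is not in that row, fell in both, at -2.68 ± 0.36 and -1.24 ± 0.36 (limma adjusted p = 3.48e-06 and 0.0203). The list's median was -0.23 and -0.08, near that of all genes.

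Apod codes for apolipoprotein D, a secreted lipocalin that carries small lipids. KO vehicle arrays read 11.17, 11.11 and 11.69, and IGF1 at 24 h 8.05, 9.02 and 8.27, with E2 at 24 h at 12.38, 10.63 and 11.14. Again the IGF1 arrays were the lowest, and those of E2 lay on both sides of vehicle. Apod fell by 2.88 ± 0.74, or 7.35-fold (limma adjusted p = 0.00979). Group means in WT were lower than in KO at each treatment, and its arrays were at 9.23, 9.71 and 9.33 with vehicle, 6.19, 6.17 and 6.43 at 24 h of E2, and 8.27, 8.48 and 6.55 at 24 h of IGF1. Apod was 1.90 higher in KO than in WT with vehicle, without overlap, and 5.12 higher at 24 h of E2. Of 10 other lipocalin genes, 1 fell and 2 rose at 24 h of E2 in WT, with Lcn2, an epithelial and neutrophil protein that binds iron carriers, up by 3.60 ± 0.64 (limma adjusted p = 0.000124), and 0 of 10 were called at 24 h of IGF1 in KO (limma, 1 at an unadjusted p under 0.05). Of these 10 genes 5 were at background on all WT vehicle arrays and 5 on all KO vehicle arrays.

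Pamr1, which codes for a secreted protein with a protease-like domain, read 8.06, 9.15 and 9.59 on KO vehicle arrays and 5.80, 6.21 and 6.15 at 24 h of IGF1. E2 at 24 h in KO read 8.87, 8.16 and 8.83, within the vehicle range. Under IGF1 it fell by 2.88 ± 0.53, or 7.36-fold (limma adjusted p = 0.000718), with 1 of its arrays at background. In WT it had the lowest difference of all genes at 24 h of E2 (-3.88, and -4.32 without WT vehicle replicate 1, when Tgfbi and Inmt were lower), from 9.64, 10.66 and 11.26 to 6.90, 6.47 and 6.55. Under IGF1 at 24 h WT arrays read 8.11, 9.55 and 7.65, all under the lowest vehicle array. Abi3bp, a gene of an extracellular matrix protein, moved less in KO. Its vehicle arrays read 11.05, 11.40 and 11.85, its IGF1 arrays at 24 h 10.68, 10.64 and 10.81, and its E2 arrays at 24 h 11.79, 12.05 and 11.58. IGF1 arrays lay just under the others without overlap. The difference from vehicle was -0.73 ± 0.35 and did not pass the test (limma adjusted p = 0.19), while against E2 it was -1.10 ± 0.35 (limma adjusted p = 0.0277). That call against E2 was lost in 5 of 6 fits with an array left out, all but that without KO E2 24 h replicate 3 (limma adjusted p from 0.0506 to 0.114), and with arrays centred on their medians (limma adjusted p = 0.0608). In WT, Abi3bp differed by -2.76 at 24 h of E2 (-3.00 without WT vehicle replicate 1), from 12.34, 13.04 and 13.08 to 10.06, 10.11 and 10.02, and by -0.78 at 24 h of IGF1, where arrays of 12.19, 12.58 and 11.36 overlapped with vehicle.

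Neto2 codes for a partner subunit of kainate-type glutamate receptors. KO vehicle arrays read 8.61, 8.17 and 8.62, IGF1 at 24 h 6.66, 6.72 and 6.63, and E2 at 24 h 8.73, 8.48 and 8.06. The IGF1 arrays were tightly grouped far below the others. Neto2 fell by 1.80 ± 0.28, or 3.48-fold (limma adjusted p = 0.000198). In WT both agents brought similar levels at 24 h: 9.73, 9.98 and 9.44 with vehicle, 7.22, 7.28 and 7.01 with E2 and 7.19, 7.47 and 7.35 with IGF1. KO vehicle differed from WT vehicle by -1.25, without overlap. Of 6 other kainate receptor genes limma called 0 in KO at 24 h of IGF1 (2 at an unadjusted p under 0.05), and 1, Grik4, fell by 0.25 ± 0.09 at 24 h of E2 in WT (limma adjusted p = 0.0476). Grik4 was near background, with WT means of 5.97 for vehicle and 5.72 at 24 h of E2. Of these 6 genes 3 were at background on all WT vehicle arrays and 4 on all KO vehicle arrays.

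Cdr1, named for an antigen of cerebellar degeneration, was called in neither comparison with vehicle at 24 h in KO. The gene lies opposite a long RNA from which a circular RNA is made, and the strand read by the probe set is not given in the sources used here, so its level is not assigned to 1 of them. KO vehicle arrays read 7.36, 5.56 and 7.17, IGF1 at 24 h 6.20, 5.97 and 5.54, and E2 at 24 h 8.45, 9.33 and 7.16. IGF1 and vehicle overlapped (-0.79 ± 0.60, limma adjusted p = 0.46), and 1 array of each was at background. E2 was 1.61 ± 0.60 above vehicle with overlap (limma adjusted p = 0.29), and the difference of IGF1 from E2 was -2.41 ± 0.60 (adjusted p = 0.00701). In WT it read 10.60, 8.70 and 8.48 with vehicle, 6.50, 6.73 and 6.68 at 24 h of E2 and 7.97, 7.02 and 6.23 at 24 h of IGF1. The highest of these was WT vehicle replicate 1, and without it the differences from vehicle shrank from -2.62 to -1.95 and from -2.18 to -1.51.

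The word late was set against the 2 h arrays. In WT, 9 of the 10 means at 2 h of E2 and all 10 at 2 h of IGF1 were already under vehicle, with medians of -1.27 and -1.78, and 7 genes in each did not overlap, beside 18.2% and 17.2% of all genes; 9.18% and 7.64% of all genes were called lower. Vehicle uteri were taken at 24 h only, so this difference also holds time after injection. From 2 h to 24 h of E2 in WT all 10 were lower again without overlap, with a median of -1.69 (10.4% of all genes called lower, 22.2% without overlap), and Inmt had the largest such difference, -4.14. From 2 h to 24 h of IGF1 in WT, 6 means were lower and 4 higher, with a median of -0.23. Their mean, -0.19, was 0.11 without WT IGF1 24 h replicate 3. Lepr and Apod were lower without overlap (16.4% of all genes), and Abca6 (1.09) and Abca8a (0.87) were higher without overlap (18.5%). All of these involve groups that chose the genes and are given with no test. The exception at 2 h of E2 was Inmt, at 0.41 from vehicle with all arrays and at -0.26 without WT vehicle replicate 1. Without that array the medians at 2 h were -1.48 and -2.22, with 8 genes in each not overlapping, beside 23.6% and 22.7% of all genes.

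In KO, the number of genes called at 2 h of IGF1, and from 2 h to 24 h of IGF1, changed when single arrays were left out. Against vehicle, IGF1 at 2 h called 1 of 10, Abca6 with -1.97 ± 0.46 (limma adjusted p = 0.0116), beside 2.95% of all genes called lower. Its arrays read 7.07, 6.41 and 9.28, so replicate 3 overlapped with vehicle. This count was 6 without that replicate and 0 without KO IGF1 2 h replicate 1 or 2 or without KO vehicle replicate 2. Replicate 3 was the highest of its group for 8 of the 10 genes, for example 12.72 for Lepr against 10.81 and 10.78, and replicate 2 the lowest for Inmt (8.48 against 11.40 and 13.37) and Apod (9.18 against 13.37 and 12.02). E2 at 2 h in KO called 0 of 10 with limma, where 0.365% of all genes were called in either direction and 1 of the 10, Neto2, was under an unadjusted p of 0.05. Without KO E2 2 h replicate 3 Neto2 was called at -1.32 (limma adjusted p = 0.0167). From 2 h to 24 h of IGF1 in KO 6 of 10 fell, beside 3.3% of all genes called lower, with a median of -1.64. The largest were Inmt (-3.20 ± 0.96), Apod (-3.07 ± 0.74) and Lepr (-2.10 ± 0.46), with limma adjusted p = 0.0365, 0.00954 and 0.00515. The other 3 were Galnt15 (-2.04 ± 0.64), Abca8a (-1.37 ± 0.41) and Neto2 (-0.97 ± 0.28). The count was 2 without KO IGF1 2 h replicate 3 or without any 1 of the KO IGF1 24 h arrays, and 3 without KO IGF1 2 h replicate 1. If KO arrays at 24 h took part in the choice, the calls and p-values of 24 h against 2 h in KO are descriptions too.

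From 2 h to 24 h of E2 in KO, Neto2 alone was called, higher by 0.90 ± 0.28 (limma adjusted p = 0.0459), where 6.08% of all genes were called higher. The median of all genes was 0.15 in this comparison, and Neto2 was not called once arrays were centred on their medians (0.77, limma adjusted p = 0.093). The count of calls was 0 without KO E2 2 h replicate 1 or 2 or KO E2 24 h replicate 2, and 2 without KO E2 24 h replicate 3. E2 against IGF1 at 2 h in KO called Galnt15 alone, higher under E2 by 2.48 ± 0.64 (limma adjusted p = 0.0349), beside 1.14% of all genes called higher. Its E2 arrays were 11.69, 10.04 and 12.29 and its IGF1 arrays 8.01, 7.69 and 10.88, which overlap. That call went to 0 of 10 without KO E2 2 h replicate 1 or 3 or KO IGF1 2 h replicate 1 or 2, and 6 of 10 were called without KO IGF1 2 h replicate 3. In WT the same comparison called 0 of 10 with limma, 1 at an unadjusted p under 0.05, where 2.8% of all genes were called higher. Replicates did not overlap for 6 of the genes, all higher under E2, beside 12.9% of all genes.

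Between genotypes the 10 genes did not go 1 way. With vehicle, Inmt (2.62) and Apod (1.90) were higher in KO without overlap (6.86% of all genes), and Cdr1 (-2.56), Abca8a (-1.62), Pamr1 (-1.59), Abi3bp (-1.39) and Neto2 (-1.25) were lower without overlap (7.41%). Without WT vehicle replicate 1 these were 1.95, 1.80, -1.89, -1.92, -2.03, -1.62 and -1.25 in that order, still without overlap (20% and 13.9% of all genes), and Galnt15 turned from 0.26 to -0.28. These are descriptions, since WT vehicle arrays entered the choice. At 2 h of E2, a time the rule does not name, 3 of 10 were higher in KO and 0 lower, where 9.2% of all genes were called higher. Apod read 13.38, 12.16 and 11.12 in KO against 8.68, 8.62 and 9.10 in WT, a difference of 3.42 ± 0.74 (limma adjusted p = 0.00149). Galnt15 read 11.69, 10.04 and 12.29 against 8.08, 8.53 and 8.26, a difference of 3.05 ± 0.64 (limma adjusted p = 0.00116). Inmt read 13.94, 11.88 and 14.52 against 9.63, 11.10 and 10.28, or 3.11 ± 0.96 (limma adjusted p = 0.0239). KO arrays were above all WT arrays for these 3. The call for Inmt was lost without WT E2 2 h replicate 1 or 3 or KO E2 2 h replicate 1 or 3 (limma adjusted p from 0.067 to 0.12). At 2 h of IGF1 limma called 0 of 10, beside 1.95% of all genes in either direction, with Lepr and Apod under an unadjusted p of 0.05, and Apod was called without KO IGF1 2 h replicate 2 (3.50, limma adjusted p = 0.0045). At 24 h of E2 all 10 were higher in KO without overlap, by 1.25 (Neto2) to 5.27 (Inmt), beside 33.6% of all genes. There the median of all genes was 0.18, and 27.7% were called higher. Under IGF1 at 24 h, 9 means were lower in KO and 7 without overlap (10.5% of all genes), led by Abca8a (-2.54), Pamr1 (-2.38) and Abca6 (-2.29).

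The word stromal was set against 13 stroma markers, such as collagens and vimentin, of which more rose than fell at 24 h where the 10 genes were low. At 24 h of IGF1 in KO 8 of the markers rose and 1 fell, with a median of 0.97: Col3a1 by 1.85 ± 0.30, Col1a1 by 1.56 ± 0.22 and Vim by 1.52 ± 0.30 (limma adjusted p = 0.000271, 9.84e-05 and 0.00134). Dcn, the matrix proteoglycan decorin, was the marker that fell, at -2.20 ± 0.30 (limma adjusted p = 8.52e-05). Over all genes the median in this comparison was -0.04 and 4.35% were called lower, while the share called higher is not given. At 24 h of E2 in WT 4 rose, 1 fell and 8 were not called, with Col1a1 up by 3.34 ± 0.22, and at 24 h of IGF1 in WT 3 rose and 0 fell. Averaged over the list, stroma markers read 10.41 to 10.98 with vehicle and 11.33 to 11.62 at 24 h of IGF1 in KO, while the mean of the 10 genes went from 9.65 to 10.56 down to 7.44 to 7.58. In WT the stroma markers read 11.04 to 11.42 with vehicle and 11.87 to 12.07 at 24 h of E2, and the 10 genes 9.97 to 10.67 and 7.31 to 7.42. So the arrays with the lowest levels of the 10 genes had stroma markers above those of vehicle. At 2 h this was otherwise. Under E2 in WT both were then below vehicle, with stroma markers at 9.82 to 9.93 and the 10 genes at 9.13 to 9.38. Under IGF1 in WT the 10 genes were at 8.73 to 8.85, while stroma markers, at 10.87 to 11.34, overlapped with vehicle. In KO both overlapped with vehicle at 2 h of either agent. Among 23 markers of resting fibroblasts, 1 fell and 2 rose under IGF1 in KO, and 5 fell and 3 rose under E2 in WT, with Tnxb (-1.35 ± 0.35) and Efemp1 (-1.32 ± 0.38) among the falls and Col15a1 (1.40 ± 0.26) and Cd34 (1.37 ± 0.24) among the rises. No file assigns the 10 genes to a cell type, so they are called here by their names.

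**Figure D4:**
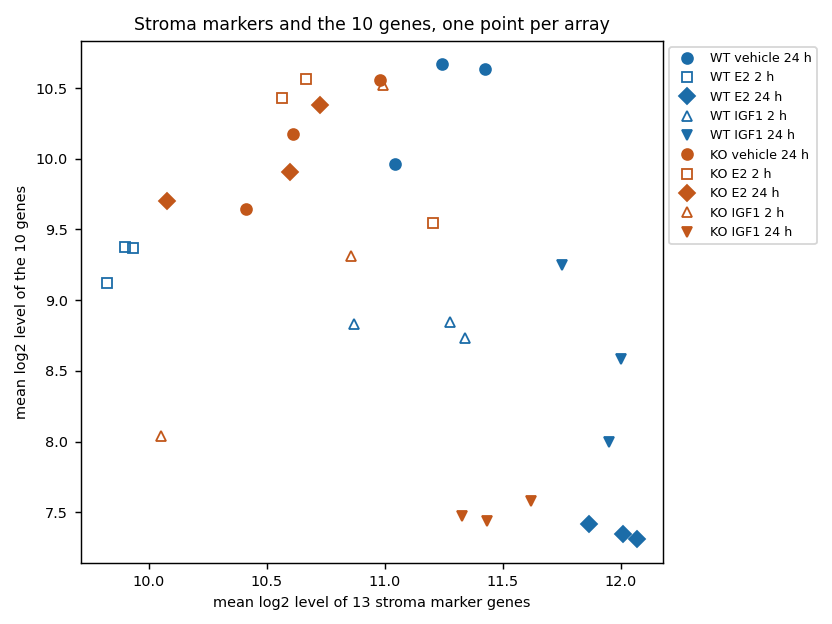
Mean log2 level of the 10 genes (vertical) against the mean of 13 stroma marker genes (horizontal), 1 point per array, for the 10 groups (WT blue, KO orange). The KO arrays at 24 h of IGF1 and the WT arrays at 24 h of E2 are lowest for the 10 genes, 7.31 to 7.58, and lie to the right of the vehicle arrays of their genotype.

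Markers of other cell types that a uterus can hold were read on the same arrays. Of 10 adipocyte markers, limma called 0 at 24 h of either agent in either genotype, with 0 at an unadjusted p under 0.05, but their mean level varied between arrays of 1 group, from 7.08 to 8.93 with vehicle in KO and from 7.28 to 10.32 at 2 h of IGF1 in WT. Neuron and Schwann cell markers were mostly at background: 9 of 12 and 6 of 8 on all KO vehicle arrays. Of the neuron markers 2 rose under IGF1 in KO, Gap43 by 1.65 ± 0.29 and Map2 by 0.98 ± 0.14 (limma adjusted p = 0.000519 and 9.13e-05), and 1 fell under E2 in WT. Of the Schwann cell markers Erbb3 rose under E2 in WT (1.34 ± 0.24, limma adjusted p = 0.000167), and limma called 0 of 8 under IGF1 in KO, with 1 at an unadjusted p under 0.05. Of 13 epithelial markers 11 rose under E2 in WT, and 4 rose and 0 fell under IGF1 in KO, Muc1 (1.65 ± 0.42), Cldn3 (1.51 ± 0.35), Krt8 (1.31 ± 0.39) and Elf3 (1.16 ± 0.38), with a median of 0.37 over the list. Smooth muscle markers gave 1 fall and 2 rises of 10 under E2 in WT and 0 and 1 under IGF1 in KO, and endothelial markers 2 falls and 0 rises of 11, and 0 and 2. Pericyte markers gave 2 falls and 1 rise of 8, and 0 and 1, and macrophage markers 0 and 1 of 12 in each. Lymphocyte markers gave 1 and 1 of 9, and 0 and 0, and mesothelial markers 0 and 0 of 8 in each. Of the 9 lymphocyte markers 4 were at background on all WT vehicle arrays and 5 on all KO vehicle arrays. The part of these cell types in the levels of the 10 genes was not tested. Over all genes 13.3% were called lower under E2 in WT and 4.35% under IGF1 in KO. With no share called higher beside them, the counts of rises are descriptions. Of 206 list genes 65 were called at 24 h of E2 in WT (21 lower, 44 higher) and 36 at 24 h of IGF1 in KO (9 lower, 27 higher). Without WT vehicle replicate 1 the former had 21 lower and 39 higher. In WT 14 were called at 24 h of IGF1, 7 without WT vehicle replicate 1, and in KO limma called 0 at 24 h of E2, with 7 at an unadjusted p under 0.05.

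Within groups the genes varied together to different degrees. Each array's deviation from its group mean was correlated over the 30 arrays, which share RNA quality and tissue makeup, so the values are a description. Lepr, Galnt15, Inmt, Abca6, Abca8a, Pamr1 and Abi3bp gave 21 pairs with Pearson r from 0.63 to 0.94 and a median of 0.82, highest for Lepr with Galnt15. On ranks the same pairs had Spearman rho from 0.44 to 0.87. These 7 were set apart after the values were seen. Apod had r from -0.21 to 0.51 with the others apart from Cdr1, Neto2 from 0.30 to 0.61 with the 7, and Cdr1 from -0.25 to 0.25 with all. The mean deviation of the 10 genes had r = 0.67 with that of the resting fibroblast markers, 0.57 with the pericyte, 0.52 with the endothelial, 0.49 with the mesothelial and 0.45 with the stroma markers, and 0.04 with the adipocyte markers. Spearman rho was 0.59, 0.49, 0.48, 0.57, 0.24 and 0.21 in the same order. The mean deviation also had r = 0.67 with the other ABCA genes and 0.65 with the leptin signalling genes. The other 10 lists had r from -0.24 to 0.19.

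Across the 10 group means, Lepr was closest to the mean profile of the 10 genes (r = 0.95), followed by Galnt15 (0.92), and Cdr1 was farthest (0.60); each gene is part of that mean. Of 1513 other genes with a range of at least 2 and a mean above background, the 12 most alike had r from 0.92 to 0.97. They were Tnfsf18, Lncpint, Ndrg1, Dmd, Trhde, Stmnd1, Plxdc2, Sp4, Scn7a, Anxa9, Igf1r and Abca1. Igf1r, the receptor of IGF1, had group means of 12.23 with vehicle, 11.69 at 24 h of E2 and 10.58 at 24 h of IGF1 in KO. In WT these were 11.55, 9.77 and 10.77. Dmd, the dystrophin gene, went from 12.01 to 11.42 and 9.45 in KO and from 12.37 to 9.52 and 10.77 in WT. Genes that resemble a mean profile of 10 points were picked from many, and the resemblance is a description.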

How the data were processed

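Uterine RNA (300 ng) was amplified with the WT Plus kit and hybridised to whole-transcript arrays, per the labels' protocols. The authors deposited log2 values for 72688 probe sets on 30 arrays; how they were made from the scans (software, normalization, build) is not given in the sources used here. An annotation gave 1 symbol to 30604 probe sets, several to 2146 and none to 39938. After 827 symbols were updated, 30142 genes were tested, and for 355 genes the probe set of highest mean was used. Limma 3.58.1 in R 4.3.3, with data.table (1.17.8), fitted the 10 group means over all arrays (lmFit, then eBayes, with 20 residual and 3.66 prior degrees of freedom). The fit was tested on simulated data, and p-values were adjusted by Benjamini-Hochberg within each comparison, called under 0.05.

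The 10 genes and all lists were chosen with earlier results of these data known. The rule names no genotype. It was assumed that WT vehicle and WT 24 h arrays chose the genes, so comparisons with them carry no test of the genes. All 10 are named, up to 4 genes of largest change per list, the 12 most alike in profile, the Abca neighbours, and Esr1. Of 218 list genes planned, 206 were measured. The alternatives centred the arrays, applied quantile normalization, kept 18493 genes and dropped 11649 dim ones, averaged probe sets, fitted the compared groups alone, added a replicate block, array weights or a trended robust prior, or left out each array. Dropping both arrays of lowest weight was added after seeing the data.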

Additional observations from a re-analysis of the deposited data

Results flagged for a closer look

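For 8 genes E2 and IGF1 at 24 h stood in opposite order in the genotypes, with every WT array of E2 below every WT array of IGF1 and every KO array of E2 above every KO array of IGF1 (n = 3 per group). Of all genes 16% were lower without overlap under E2 in WT and 23.7% under IGF1 in KO. The share that met both was not counted, so the 8 have no measure beside them. For Lepr the WT groups nearly met, at 9.01 for E2 and 9.03 for IGF1. The change from WT to KO in E2 minus IGF1 was 3.61 for Lepr (-0.65 in WT, 2.95 in KO), 3.45 for Galnt15 (-0.92 and 2.53) and 4.36 for Pamr1 (-1.79 and 2.57). It was 5.53 for Inmt (-1.95 and 3.58), 4.32 for Abca6 (-1.29 and 3.03) and 3.94 for Abca8a (-1.82 and 2.12). For Apod it was 4.44 (-1.50 and 2.94) and for Abi3bp 3.08 (-1.98 and 1.10). Between 2 h and 24 h of IGF1, Abca6 was higher at 24 h in WT (1.09) and lower in KO (-1.37), a change of -2.46, and Abca8a behaved alike (0.87 and -1.37, a change of -2.25). Between 2 h and 24 h of E2, Cdr1 was lower in WT (-1.55) and higher in KO (1.53), a change of 3.08. These differences between the genotypes were not tested, since WT arrays at 24 h took part in the choice of the genes.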

How the results depend on the processing

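The 8 falls at 24 h of IGF1 in KO were called under each alternative, 8 to 8 with an array left out, while Abi3bp was called there with array weights alone (-0.87, limma adjusted p = 0.0324). If KO arrays took part in the choice of the genes, these calls are descriptions, and their steadiness is not independent support. Over all results that answer a comparison 334 alternatives stayed near the count or mean, 12 gained and 31 lost calls, and no called value changed sign. The described mean for IGF1 at 24 h against 2 h in WT ran from -0.51 to 0.11 with an array left out. The other results are those of single genes and the counts of lower and of higher genes in each list. Of their alternatives 4963 stayed so, 115 gained and 224 lost calls, and 8 differences moved by more than the replicate spread. Counts of called genes among the 10 that moved by over 1.5 times were as follows. For IGF1 at 2 h against vehicle in KO (1 in all) there were 2 after quantile normalization, 2 without dim genes, 3 with array weights, 2 without the 2 arrays of lowest weight, 0 with only the compared groups, and 0 to 6 with an array left out. For E2 at 24 h against 2 h in KO (1 in all) centring, quantile normalization, removal of dim genes, only the compared groups and the fit without the 2 arrays of lowest weight gave 0, the trended robust prior 2, and an array left out 0 to 2. For E2 against IGF1 at 2 h in KO (1) centring and only the compared groups gave 0 and an array left out 0 to 6, and in WT (0) only the compared groups gave 3 and an array left out 0 to 0. For IGF1 at 24 h against 2 h in KO (6) only the compared groups gave 0, and an array left out 2 to 8. Smaller moves were 5 there with centring or array weights and 8 without dim genes or the 2 arrays of lowest weight, 9 of 10 for IGF1 against E2 at 24 h in KO with centring or without those 2 arrays, and 4 for KO against WT at 2 h of E2 (3), with Lepr added by quantile normalization, array weights, removal of dim genes or of those 2 arrays, and Cdr1 by only the compared groups. With an array left out E2 at 2 h against vehicle in KO (0) gave 0 to 1, KO against WT 2 to 4 at 2 h of E2 (3) and 0 to 1 at 2 h of IGF1 (0). Of the list genes, 14 at 24 h of IGF1 in WT became 4 with only the compared groups, 38 with array weights, 8 without the 2 arrays of lowest weight and 4 to 12 with an array left out. In KO 36 became 23 to 34, with 23 lacking KO vehicle replicate 2 or KO IGF1 24 h replicate 3. The cause was not tested. Fits of only the compared groups hold fewer arrays and take the spread from those groups alone. Calls were both lost and gained in such fits.

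With the replicate number as a block the counts were 8, 10, 6, 1, 0, 1, 1, 0, 3 and 0 in the order IGF1 at 24 h against vehicle, E2 and 2 h in KO, IGF1 and E2 at 2 h against vehicle, E2 at 24 h against 2 h, E2 against IGF1 at 2 h in KO and WT, and KO against WT at 2 h of E2 and IGF1. The 1 call for E2 at 24 h against 2 h in KO changed from Neto2 (adjusted p = 0.0513) to Galnt15 (-1.99, limma adjusted p = 0.0484). The labels share only a number. Every same-numbered correlation of deviations passed 0.1 in 1 comparison, KO against WT with vehicle (0.433, 0.147 and 0.296).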
